A study of Homo sapiens with 12 samples.

Results

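The comparison described here set ATG7 knockout (KO) cells against wild-type (WT) cells when both had been exposed to H2O2. Its members were all genes of the gene-level RNA-seq count table, read in 3 libraries of ATG7 KO cells and 3 libraries of WT cells, which are 6 of the 12 libraries of the series. Of the 58735 genes in the table, 15909 held enough reads in these libraries to be tested. The cells were HLE-B3, an immortalized human lens epithelial line. ATG7 had been disrupted with CRISPR/Cas9 from a guide carried by the pEP-KO vector, followed by puromycin and the picking of single clones, and the labels do not say which clone, or how many, gave the KO libraries. Both treated groups received 200 µM H2O2 for 12 h, and the untreated WT and untreated ATG7 KO groups, with 3 libraries each, are labelled as time 0 h. Exposure and time in culture therefore cannot be told apart, and a difference between the KO and WT lines cannot be told apart from a difference between a clone and its parent population. The labels call the libraries of a group biological replicates.

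ATG7 is the E1-like enzyme that activates ATG12 and the LC3 family of proteins, so that ATG12 can be joined to ATG5 and LC3 to the lipid of the growing autophagosome membrane. The lens epithelium is the cell layer that keeps the lens transparent, and H2O2 is the oxidant most often used to model its stress. Cells answer such stress with programmes that are switched on within minutes to hours: immediate early transcription factors, heat shock chaperones, the unfolded protein and ATF4 responses, p53 targets, cytokines and changes of the cell cycle. The results below follow these programmes. Levels are the fragments per kilobase of gene scaled to library depth (FPKM) in the deposited table, given as mean ± SD over 3 libraries, and log2 fold changes are ATG7 KO over WT. A gene is said to have passed when its Benjamini-Hochberg adjusted p over all genes tested, from edgeR's quasi-likelihood test on the counts, was under 0.01, and to be differentially expressed when in addition it lay beyond 1 on the log2 scale, up or down, and its mean level was above 1 FPKM in at least 1 of both groups. In bulk RNA, fewer cells of a kind and less RNA per cell cannot be told apart.

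The 12 libraries held 15602183 to 17659496 counted reads. Replicates differed by more than counting noise, which alone gives a chi-square per gene of about 1. Pairs within groups stood at 2.16 to 4.86, with WT H2O2 replicate 3 at 4.02 and 4.86 and the other WT H2O2 pair at 2.31. Far apart was ATG7 KO untreated replicate 1, which stood at 85.8 and 87.8 against the other libraries of its group. The comparison under H2O2 does not use that library. Values from untreated cells and interactions include it unless said otherwise, and several counts over gene lists are also given without it. Under H2O2 more genes had at least 1 read in WT than in ATG7 KO libraries (26542 to 27504 against 24646 to 24774). Mitochondrial genes held 3.54 to 3.90% of reads in WT and 3.16 to 3.27% in ATG7 KO cells with H2O2. Of the genes listed as lens epithelial markers, GJA1 (connexin 43), CDH2 (N-cadherin) and VIM (vimentin) were abundant, and PAX6 (0.776 ± 0.0638 against 0.560 ± 0.0481 FPKM) was low but present. FOXE3, PROX1, CRYAA and CDH1 had too few reads to be tested.

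The message of ATG7 itself was not lost. ATG7 (ENSG00000197548, chr3:11272309-11557665, GRCh38) stood at 1.99, 1.91 and 1.97 FPKM in the WT libraries and at 2.11, 2.12 and 2.35 FPKM in the ATG7 KO libraries with H2O2. The groups did not overlap, but the log2 fold change of 0.15 ± 0.09 (SE) did not pass (adjusted p = 0.135), so the gene-level count gives no check of the knockout.

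Under H2O2 the 2 lines differed across much of the transcriptome, mostly by small amounts. Of 15909 genes, 4414 passed with a higher level in ATG7 KO cells (27.7%) and 4433 with a lower level (27.9%). Most of these differences were modest: 62.8% of tested genes had a log2 fold change within 0.5 of 0, and 6721 of the genes that passed had 1 or less. Differential expression was called for 482 genes that were higher (3.03%) and 705 that were lower (4.43%). Protein-coding genes made up 368 of the higher and 475 of the lower genes, while the lower genes also held 82 antisense and 68 lincRNA genes. Without H2O2, 349 genes were higher (2.27% of 15357 tested) and 189 lower (1.23%), and 679 (4.42%) and 503 (3.28%) passed. These untreated counts rested on ATG7 KO untreated replicate 1: without it, 2891 (18.2% of 15848 tested) and 2843 (17.9%) passed, and 426 (2.69%) and 259 (1.63%) were differentially expressed. Of the 482 genes higher under H2O2, 149 were also differentially expressed in that direction without it (180 when ATG7 KO untreated replicate 1 was left out). For the 705 lower genes this number was 88 (106 without that library). The genotype by treatment interaction, which asks whether the KO-to-WT difference changed with treatment, passed for 1184 of 16856 genes towards ATG7 KO (7.02%) and 1182 towards WT (7.01%). Leaving out the same library raised these counts to 3122 (17.8% of 17543) and 2852 (16.3%).

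**Figure D1:**
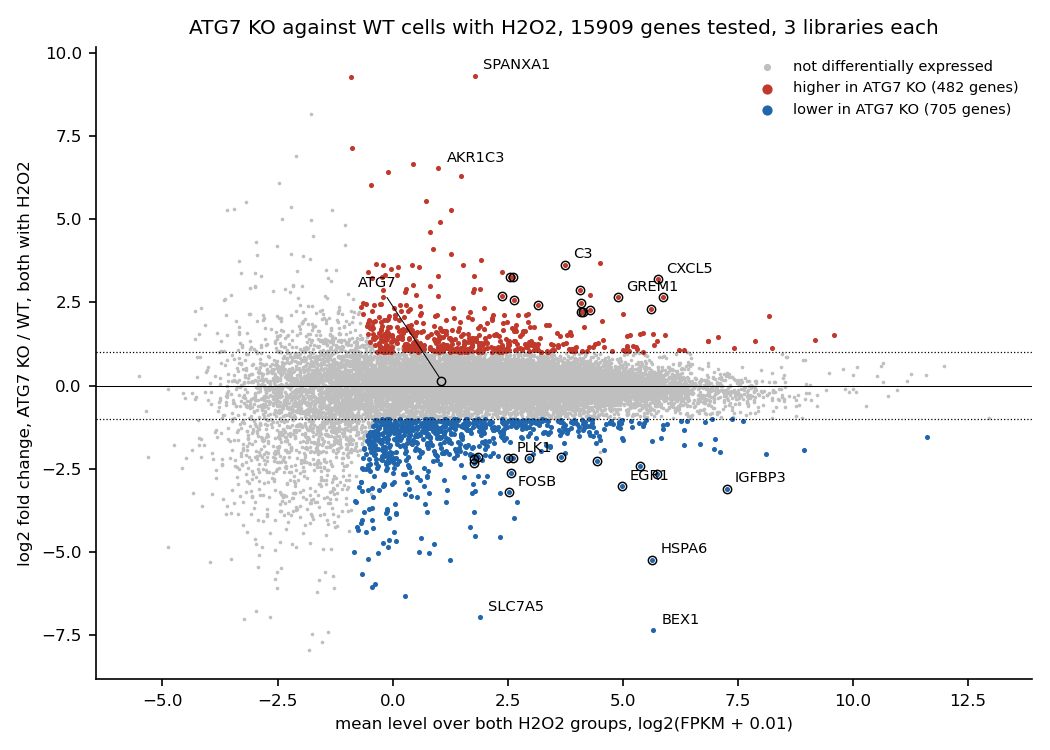
Each point is a tested gene, placed by its mean level over the 6 H2O2 libraries (x axis, log2 of FPKM plus 0.01) and its log2 fold change, ATG7 KO over WT (y axis). The 482 genes called higher are red, the 705 called lower are blue, dotted lines mark a fold change of 1 on the log2 scale, and black rings mark the leading genes of the text. ATG7 lies near 0, HSPA6 and BEX1 far below it and CXCL5 and C3 far above.

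The 15 highest fold changes were taken among differentially expressed protein-coding genes above 1 FPKM in both lines and without overlap of replicates. These genes were C3, NRCAM, SCG5, CXCL5, SRPX, SAA1, CXCL6, GREM1, LAPTM5, ANPEP, TIE1, CSF3, STC1, SH2D2A and PTPRU. They ranged from 2.21 to 3.64 on the log2 scale and include secreted proteins: the complement component C3, the acute-phase protein SAA1, the neutrophil chemokines CXCL5 and CXCL6, the granulocyte growth factor CSF3 and the bone morphogenetic protein antagonist GREM1. SAA1 read 2.0, 0.979 and 1.10 FPKM in WT and 9.69, 8.11 and 9.05 FPKM in ATG7 KO cells. GREM1 read 7.69, 8.40 and 8.24 against 51.5, 54.4 and 48.9 FPKM. The replicates of the lines did not overlap, which the rule that named both genes required. Without H2O2 they were higher in ATG7 KO cells as well (log2 fold changes of 6.02 and 3.03), and neither interaction passed (adjusted p = 0.0112 and 0.0359, although both passed without ATG7 KO untreated replicate 1, at 0.000159 and 0.000111). SAA1 had 3 reads over the 3 untreated WT libraries together. The sizes of its untreated fold change and of its interaction therefore depend on counts near 0.

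Under the same limit of 1 FPKM in both lines, and without overlap of replicates, the 15 protein-coding genes with the lowest fold changes were HSPA6, FOSB, IGFBP3, EGR1, GADD45B, ACTG2, HOXB9, ABI3BP, HSPA1A, LY6E, PLK1, OXTR, MELTF, ZFP36 and SELPLG, from -5.24 to -2.15. They include 2 inducible HSP70 chaperones, the immediate early factors FOSB and EGR1, the mRNA decay factor ZFP36 and the mitotic kinase PLK1. IGFBP3, a secreted carrier of insulin-like growth factors, read 269, 272 and 279.9 FPKM in WT and 31.5, 31.9 and 33.2 FPKM in ATG7 KO cells. GADD45B, a stress-induced partner of kinase signalling, stood at 14.9 ± 0.803 in ATG7 KO against 93 ± 7.98 FPKM in WT cells. The lack of overlap in both genes was a condition of the rule that named them. The interaction passed for 11 of these 15 genes, and for 10 of the 11 the KO-to-WT ratio was lower with H2O2 than without, the exception being IGFBP3 (interaction 0.74, adjusted p = 0.000252). Over all genes tested, it passed towards WT for 7.01%. The 15 were chosen for low fold changes with H2O2, which enter the interaction, so its direction is not independent of the choice. The HSPA6 interaction did not pass when ATG7 KO untreated replicate 1 was left out (adjusted p = 0.0122).

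Immediate early genes, the transcription factors and feedback regulators that cells switch on first after a stimulus, showed the lowest median of the 33 gene lists examined. In this and every list below, counts that passed with H2O2 stand beside 27.7% higher and 27.9% lower over all genes tested. Of 23 members, all tested, 19 passed with a lower level in ATG7 KO cells and 3 with a higher level, 10 and 1 of them differentially expressed, and the list's median log2 fold change was -0.85 against -0.002 for all genes. FOS, a subunit of the AP-1 factor (chr14:75278774-75282230), read 11.5, 9.67 and 14.1 FPKM in WT cells and 0.848, 0.489 and 0.872 FPKM in ATG7 KO cells. EGR1, a zinc finger factor (chr5:138465490-138469315), read 59.9, 51.7 and 56.5 against 6.35, 6.83 and 7.51 FPKM. Every WT library lay several times above every ATG7 KO library, with log2 fold changes of -3.99 ± 0.19 (SE, adjusted p = 2.20e-10) for FOS and -3.03 ± 0.06 (adjusted p = 2.91e-25) for EGR1. The AP-1 subunits did not move as a block. FOSB (-3.20), JUNB (-1.99), JUN (-0.85) and FOSL1 (-0.82) were lower and FOSL2 (0.47) was higher. MYC, the growth-promoting factor, was lower at 16 ± 0.638 against 47.6 ± 2.84 FPKM. The phosphatases that switch off MAP kinases also split: DUSP1 (-1.05) and DUSP5 (-0.64) were lower, whereas DUSP4, which acts on ERK, read 7.44, 7.37 and 6.59 FPKM in WT and 21.3, 21.6 and 22.4 FPKM in ATG7 KO cells (1.60 ± 0.05, adjusted p = 6.61e-23). Untreated cells showed little of this, with a median of 0.01, 4 members higher and 2 lower (6 and 4 without ATG7 KO untreated replicate 1). The interaction passed towards WT for 17 of 23 members (21 towards WT and 1 towards ATG7 KO without that library), FOS (-3.51), EGR1 (-2.45) and JUNB (-2.10) among them.

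**Figure D2:**
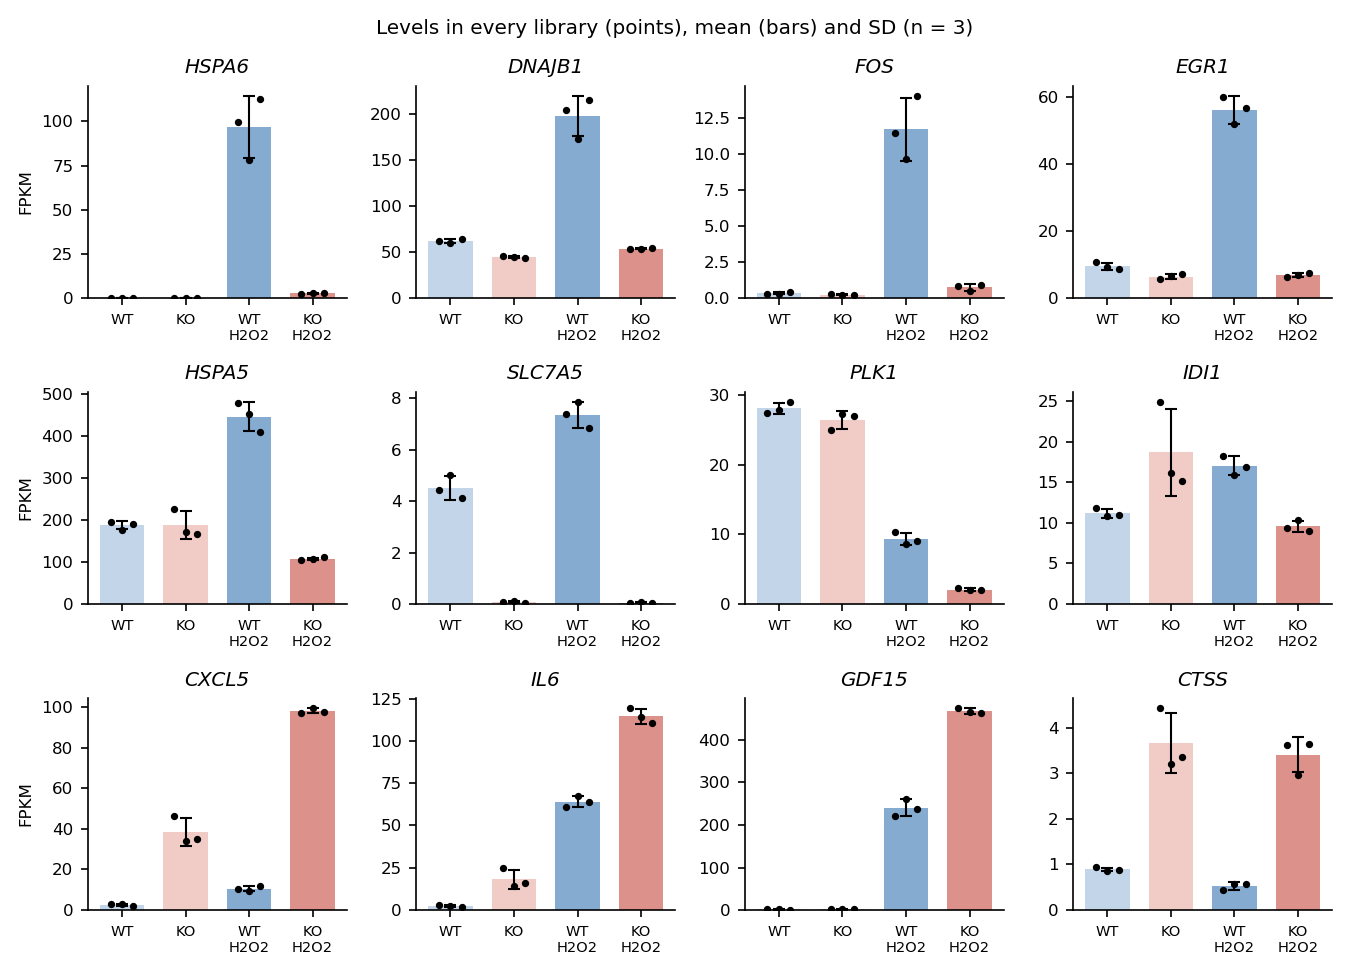
Levels of 12 genes in FPKM (y axes, from 0) in untreated and H2O2-treated WT and ATG7 KO cells. Points are the 3 libraries of a group, bars their mean and whiskers the SD. FOS, EGR1, HSPA6, DNAJB1 and HSPA5 stand high in treated WT cells alone of the 4 groups, while CXCL5 and GDF15 are highest in treated ATG7 KO cells.

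Heat shock chaperones bind unfolded proteins, and the inducible ones are switched on when the factor HSF1 binds heat shock elements, inverted repeats of GAA, near the start of the gene. HSPA6 and HSPA1A encode inducible HSP70 proteins and HSPA8 the constitutive one. The upstream sequences of HSPA6 and HSPA1A are shown because they had the lowest fold changes of the chaperone list. That of HSPA8 is shown because the gene was higher and holds a run of 3 heat shock element units. Such a run in HSPA8 was therefore a condition of the choice. The 250 bases before the RefSeq start (GRCh38.p14) are given 5′ to 3′ on the strand of the gene, with matches to 2 adjoining units, GAANNTTC or TTCNNGAA, in capitals. The windows are chr1:161524290-161524539 for HSPA6, on the plus strand, chr6:31815293-31815542 for HSPA1A, plus strand, and chr11:123062137-123062386 for HSPA8, minus strand.
HSPA6: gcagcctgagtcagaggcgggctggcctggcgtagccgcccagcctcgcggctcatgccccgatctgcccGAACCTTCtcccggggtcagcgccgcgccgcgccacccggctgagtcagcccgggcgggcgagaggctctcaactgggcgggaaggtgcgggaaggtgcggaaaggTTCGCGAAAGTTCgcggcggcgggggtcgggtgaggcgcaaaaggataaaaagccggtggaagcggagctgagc
HSPA1A: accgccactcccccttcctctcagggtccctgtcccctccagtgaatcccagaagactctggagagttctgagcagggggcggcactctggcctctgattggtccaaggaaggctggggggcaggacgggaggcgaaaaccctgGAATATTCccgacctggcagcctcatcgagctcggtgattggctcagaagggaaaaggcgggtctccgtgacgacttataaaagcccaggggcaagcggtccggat
HSPA8: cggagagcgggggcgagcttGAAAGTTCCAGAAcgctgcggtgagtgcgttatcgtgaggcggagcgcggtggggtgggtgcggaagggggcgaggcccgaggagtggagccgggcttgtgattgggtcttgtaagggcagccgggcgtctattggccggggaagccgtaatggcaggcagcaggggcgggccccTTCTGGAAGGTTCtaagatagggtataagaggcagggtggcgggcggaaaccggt

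Matches began 180, 74 and 69 bases before the start in HSPA6, 106 bases before it in HSPA1A, and 230, 225, 55 and 50 bases before it in HSPA8, and runs of 3 units were found once in HSPA6 and 2 times in HSPA8. Of 27305 promoters of this length, 11.7% held the 2-unit match on either strand and 0.439% the 3-unit match, beside 10 and 4 of the 24 heat shock genes with an entry. A match is a description of the letters, not a binding site.

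Of 26 heat shock chaperone genes, 25 were tested, 16 of which passed with a lower and 5 with a higher level in ATG7 KO cells, with a median of -0.20. The inducible members lay lowest. HSPA6 (ENSG00000173110) read 99.9, 78.0 and 113 FPKM in WT cells and 2.39, 2.57 and 2.80 FPKM in ATG7 KO cells, a difference on the log2 scale of -5.24 ± 0.24 (adjusted p = 4.76e-05). Reads of HSPA6 may be shared with its close copy HSPA7. HSPA1A read 30.8, 31.8 and 44.7 against 6.0, 8.48 and 8.03 FPKM (-2.26 ± 0.24, adjusted p = 0.00116), with the caveat that HSPA1A and HSPA1B (-1.60) are near-identical copies. DNAJB1, the co-chaperone that hands substrates to HSP70, read 204, 173 and 215 against 53.3, 53.5 and 53.9 FPKM (-1.89 ± 0.09). For all 3 genes no WT library came down to the ATG7 KO level. HSPB1 (HSP27; -1.06), the small heat shock protein and lens crystallin CRYAB (-0.82) and BAG3 (-0.74), which steers HSP70 clients to autophagy, were lower too. In the other direction, constitutive HSPA8 was higher at 416 ± 6.61 against 281 ± 31.0 FPKM (0.56 ± 0.08), and HSPA4L, a nucleotide exchange factor of HSP70, read 18.7, 18.3 and 18.2 FPKM in ATG7 KO and 6.28, 6.54 and 6.77 FPKM in WT cells (1.49 ± 0.04, adjusted p = 1.22e-23). The abundant cytosolic chaperones HSP90AA1 (-0.14), HSP90AB1 (-0.19) and HSPH1 (-0.12) passed with differences below 0.2, and HSF1 itself differed by 0.16. Without H2O2, HSPA6 was near 0 in both lines (0.0314 and 0.200 FPKM) and HSPA1A did not differ past the threshold (-0.26, adjusted p = 0.313), and the interactions of HSPA1A (-1.99), DNAJB1 (-1.41) and HSPA4L (1.88) passed with and without ATG7 KO untreated replicate 1. Part of the list was lower in untreated cells: 3 of 23 tested passed as lower and 0 as higher (10 and 2 without that library). The interaction passed towards WT for 8 members and towards ATG7 KO for 2 (7 and 5 without that library).

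Genes of the unfolded protein response, which the endoplasmic reticulum (ER) raises when its folding capacity is exceeded, fell into both directions. Of 20 members, 10 passed as lower and 6 as higher, with a median of -0.13. HSPA5, the main ER chaperone BiP (chr9:125234853-125241330), read 477, 451 and 409 FPKM in WT and 104, 106 and 111 FPKM in ATG7 KO cells, a difference on the log2 scale of -2.07 ± 0.05 (adjusted p = 5.19e-17). The untreated lines had the same HSPA5 level of 187 FPKM, and the interaction was -2.06 (adjusted p = 1.04e-05). XBP1, a transcription factor of this response, was lower at 17.9 ± 0.698 against 41.9 ± 3.92 FPKM, as was its activating nuclease ERN1 (IRE1; -0.67). EDEM1, which clears misfolded glycoproteins, was higher (0.85), and the ER chaperone HYOU1 (0.05) did not pass.

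The ATF4 response to amino acid shortage showed a more uniform pattern. All 24 members were tested, 20 passed with a lower level in ATG7 KO cells, 8 of them differentially expressed, the other 4 did not pass, and the median was -0.70. ATF4 itself stood at 129 ± 4.57 against 201 ± 10.4 FPKM (-0.66). Among its targets, the mTORC1 inhibitor DDIT4 read 21.4, 24.9 and 18.4 FPKM in WT and 5.25, 5.68 and 5.13 FPKM in ATG7 KO cells (-2.01 ± 0.10, adjusted p = 9.44e-17). The pseudokinase TRIB3 (-1.73), the glutathione-degrading enzyme CHAC1 (-1.57), the asparagine synthetase ASNS (-1.38) and the factor DDIT3 (CHOP; -1.27) were lower as well. Amino acid carriers were lower too: SLC7A11, the cystine carrier, at -0.95, the shared heavy chain SLC3A2 at -0.93 and the leucine carrier SLC7A5 (chr16:87830023-87869488) at -6.95. SLC7A5 read 7.37, 7.83 and 6.82 FPKM in WT and 0.0369, 0.0898 and 0.0486 FPKM in ATG7 KO cells, so that 14 reads were counted in the 3 ATG7 KO libraries together. In untreated cells SLC7A5 already differed by -5.79 (adjusted p = 6.60e-05), and its interaction did not pass (adjusted p = 0.0623, both from edgeR's quasi-likelihood test). Part of the list was already lower without H2O2 (9 of 24 passed as lower and 1 as higher, median -0.52; 16 and 3 without ATG7 KO untreated replicate 1). The interaction went both ways, 4 members towards ATG7 KO and 8 towards WT (7 and 9 without that library). DDIT4 did not differ past the threshold in untreated cells (-0.05, adjusted p = 0.862; interaction -1.96), whereas ASNS already did so more widely (-3.18; interaction 1.80).

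Mitotic genes were lower in treated ATG7 KO cells. Of 25 members, 18 passed as lower, 9 of them differentially expressed, and 1 as higher, with a median of -0.58. PLK1, the kinase that drives entry into and exit from mitosis (chr16:23677656-23690367), read 10.3, 8.64 and 9.06 FPKM in WT and 2.26, 1.98 and 1.97 FPKM in ATG7 KO cells (-2.18 ± 0.09, adjusted p = 9.37e-20). The level without H2O2 was 28.1 in WT and 26.4 FPKM in ATG7 KO cells, with an interaction of -2.08 (adjusted p = 2.05e-06). CDC20, an activator of the anaphase-promoting complex, stood at 15.8 ± 0.616 against 48.9 ± 3.12 FPKM, and cyclin B1 (CCNB1) at 10.3 ± 0.344 against 28.5 ± 2.18 FPKM. The kinases AURKA (-1.12) and BUB1 (-1.09) and the motor KIF20A (-1.39) were lower in the same way. Not all proliferation genes did so. CDK1 (-0.27, adjusted p = 0.0261) did not pass, TOP2A differed by -0.16 with overlapping replicates, and MKI67, the usual proliferation marker, was slightly higher (0.12), which turned to -0.10 after a correction for gene length. In untreated cells the list's median was -0.07, with 3 members higher and 7 lower once ATG7 KO untreated replicate 1 was left out, and 13 interactions passed towards WT (16 towards WT and 3 towards ATG7 KO without that library).

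Genes of the G1/S transition and replication did not share that pattern: 12 of 25 tested passed as higher and 7 as lower, with a median of 0.07. Over all genes 27.7% passed as higher and 27.9% as lower, so the lower count was near the general share. Cyclin E1 (CCNE1; 0.54) and cyclin D3 (CCND3; 0.72) were higher, while the replicative helicase subunits MCM2 (-0.38), MCM3 (-0.41), MCM6 (-0.46) and MCM7 (-0.52) were lower. PCNA, the replication clamp, stood at 540.5 ± 17.8 and 534 ± 5.95 FPKM. Of 12 cell cycle inhibitors and senescence genes, 8 were lower and 2 higher, with a median of -0.23. CDKN1A (p21), the main arrest gene under p53, was high in both lines (1689 ± 25.7 and 1550.1 ± 114 FPKM, against 47.8 and 49.5 FPKM untreated) and differed by 0.12. 

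Targets of p53, the transcription factor activated by DNA damage, were mostly higher. Of 25 such genes, 15 passed as higher and 5 as lower, with a median of 0.22. GDF15, a secreted stress hormone (chr19:18374731-18389176), read 222, 261 and 238 FPKM in WT and 475, 465 and 464 FPKM in ATG7 KO cells (0.95 ± 0.04, adjusted p = 2.83e-16) with 1.51 and 1.41 FPKM without H2O2. TP53I3 (0.95), the ribonucleotide reductase subunit RRM2B (0.85), the DNA repair genes XPC (0.83) and DDB2 (0.74) and the p53 ubiquitin ligase MDM2 (0.59) were higher. GADD45A went the other way, with 804, 850.5 and 665 FPKM in WT and 205, 204 and 197 FPKM in ATG7 KO cells (-1.94 ± 0.11, adjusted p = 6.72e-05). In untreated cells 1 target was higher and 2 were lower (4 and 10 without ATG7 KO untreated replicate 1), and 10 interactions passed towards ATG7 KO and 2 towards WT (13 and 4 without that library).

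**Figure D3:**
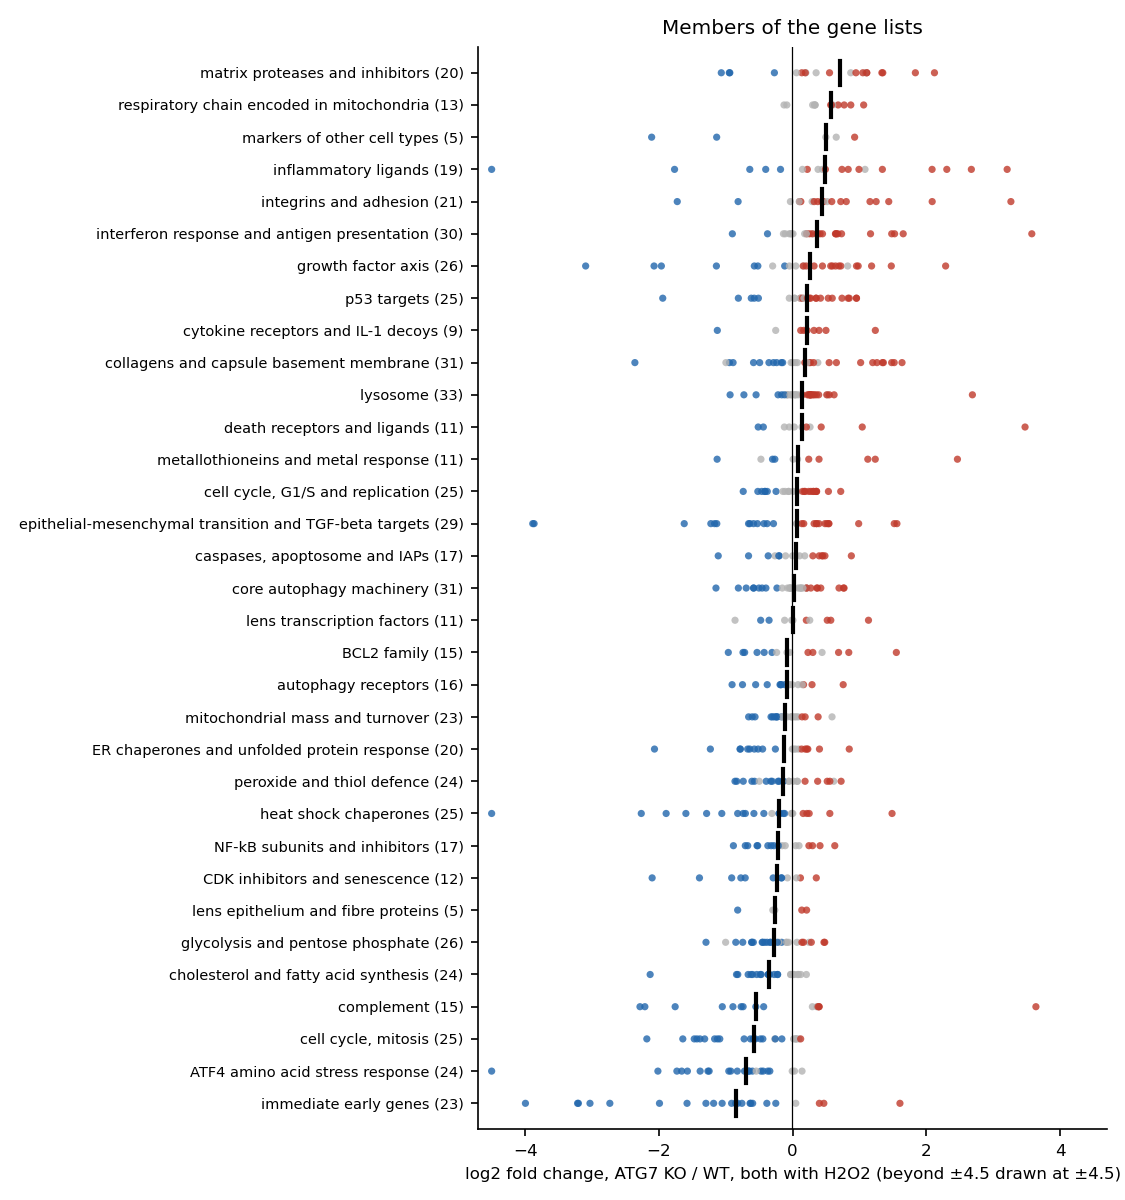
Log2 fold changes under H2O2, ATG7 KO over WT (x axis), of the tested members of 33 gene lists, with the number tested in brackets. Red and blue points passed as higher and lower, grey points did not pass, and black bars are list medians, ordered from 0.71 for matrix proteases and inhibitors to -0.85 for immediate early genes.

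Cytokines and chemokines were mostly higher in ATG7 KO cells, by less with H2O2 than without. Of 19 inflammatory ligands, all tested, 10 passed as higher and 5 as lower with H2O2 (median 0.49), against 15 and 1 of 17 without it (median 2.57; 16 and 1 without ATG7 KO untreated replicate 1). The interaction passed towards WT for 14 of the 19 and towards ATG7 KO for 1 (15 and none without that library). CXCL5 (chr4:73995642-73998779) read 10.3, 9.32 and 12.0 FPKM in WT and 97.2, 99.4 and 97.6 FPKM in ATG7 KO cells with H2O2 (3.21 ± 0.06, adjusted p = 1.90e-27). CXCL6 read 13.9, 13.4 and 20.3 against 100.2, 103 and 103 FPKM (2.67 ± 0.16). Both genes lie in the chemokine cluster of chromosome 4, and both were higher in untreated ATG7 KO cells as well (3.84 and 3.78). The letters upstream of them are shown because these were the chemokines with the highest fold changes, and each holds overlapping matches to the NF-κB consensus, in capitals, which begin 91 and 90 bases before the RefSeq start in CXCL5 (chr4:73998678-73998927, minus strand) and 90 and 89 bases before it in CXCL6 (chr4:73836428-73836677, plus strand).
CXCL5: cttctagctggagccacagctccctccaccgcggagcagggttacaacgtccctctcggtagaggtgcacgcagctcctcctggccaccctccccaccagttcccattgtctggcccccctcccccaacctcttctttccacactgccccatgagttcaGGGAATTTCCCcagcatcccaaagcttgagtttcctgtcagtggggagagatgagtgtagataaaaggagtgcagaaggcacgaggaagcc
CXCL6: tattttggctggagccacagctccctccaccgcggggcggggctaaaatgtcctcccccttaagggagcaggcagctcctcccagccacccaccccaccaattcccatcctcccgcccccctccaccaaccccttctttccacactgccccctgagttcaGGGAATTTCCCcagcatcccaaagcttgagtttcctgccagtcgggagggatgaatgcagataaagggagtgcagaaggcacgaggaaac

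This consensus occurred in 9.57% of all promoters of that length and in 7 of the 14 inflammatory ligands with an entry (IL6, CXCL1, CXCL2, CXCL3, CXCL5, CXCL6 and CCL20). The AP-1 letters TGANTCA occurred in 6.60% of all promoters and in 3 of these 14.

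Several other ligands had a lower KO-to-WT ratio with H2O2 than without it. CXCL8 (interleukin 8) stood at 1034 ± 21.1 FPKM in ATG7 KO and 732 ± 28.1 FPKM in WT cells, a difference of 0.49 on the log2 scale against 3.31 untreated (interaction -2.82, adjusted p = 3.47e-05). CXCL2 (0.22 against 2.57), IL1A (-0.18 against 1.98) and CCL2 (-0.40 against 1.28) had passing interactions too, and IL1A and CCL2 were lower than in WT cells with H2O2. LIF, a cytokine of the interleukin 6 family, read 167, 173 and 134 FPKM in WT and 48.0, 45.5 and 46.7 FPKM in ATG7 KO cells (-1.77 ± 0.11, adjusted p = 0.000123), although it had been higher without H2O2 (0.81; interaction -2.57). CSF2 (1.34), IL11 (0.74) and CXCL1 (0.99) were higher in ATG7 KO cells. TNF gave 18, 12 and 32 reads in the WT libraries and none in the ATG7 KO libraries, so that it was at least 21.4-fold lower when 3 reads are allowed over the KO group. The list median stayed at 0.49 with TNF set to that bound.

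Genes that sense or limit these signals behaved in several ways. Of 9 tested cytokine receptors and decoys, 7 were higher and 1 lower (median 0.22), with IL1RAP, a co-receptor of interleukin 1, at 0.50 and TNFRSF1B at -1.13. Among 17 NF-κB subunits and inhibitors, 4 were higher and 9 lower (median -0.21), including NFKB1 (p105/p50), which stood at 16.7 ± 0.373 against 30.7 ± 2.77 FPKM, and the inhibitory ubiquitin editor TNFAIP3 (A20; -0.53). NFKBIZ, an inducible co-activator, was higher (0.41). The interaction passed towards WT for 8 of the 17 (11 without ATG7 KO untreated replicate 1) and towards ATG7 KO for none. Complement was mixed around C3, of which 23.6, 25.5 and 25.5 FPKM were present in ATG7 KO and 1.97, 2.11 and 1.90 FPKM in WT cells: 4 of 15 were higher and 9 lower (median -0.55). The receptor C5AR1 (-2.21) and the inhibitor SERPING1 (-1.76) were lower, and the proteases C1R (0.40) and C1S (-0.43) parted. Under DESeq2 5 of the complement genes passed as lower.

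Interferon response and antigen presentation genes were mostly higher: 18 of 30 tested passed as higher and 2 as lower (median 0.36), and 7 were higher without H2O2 (22 without ATG7 KO untreated replicate 1). IFI44L, an interferon-induced gene, read 2.02, 1.84 and 2.04 FPKM in ATG7 KO and 0.115, 0.178 and 0.199 FPKM in WT cells (3.58 ± 0.15, adjusted p = 3.07e-19). IFI44 (1.65) and OAS2 (1.52) were higher. IRF1, a transcription factor of the response, was lower (-0.90; interaction -1.31).

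Regulators of cell death passed in both directions within each family, in counts near the shares over all genes (27.7% higher and 27.9% lower). Of 15 tested BCL2 family genes, 5 were higher and 6 lower, with a median of -0.08 that became 0.05 after correction for gene length. BMF, a BH3-only sensor of lost anchorage, read 1.23, 0.966 and 1.17 FPKM in WT and 3.15, 2.98 and 3.83 FPKM in ATG7 KO cells (1.55 ± 0.12, adjusted p = 1.99e-12), and it was also higher untreated (1.27). The BH3-only genes PMAIP1 (NOXA; -0.96), BBC3 (PUMA; -0.74) and BCL2L11 (BIM; -0.72) were lower. For caspases, apoptosome and inhibitor of apoptosis genes the counts were 6 higher and 5 lower of 17 (median 0.05). CASP8, the initiator caspase of death receptors, was higher (0.88), and BIRC5 (survivin), which also serves in mitosis, lower (-1.11). Death receptors and ligands gave 4 higher and 2 lower of 11 (median 0.14), with TNFRSF21 at 1.04 and the decoy receptors TNFRSF10C and TNFRSF10D at 3.47 and -0.51. The death receptor TNFRSF10B (-0.05) did not pass.

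Extracellular matrix and adhesion genes leaned towards higher levels. Of 20 tested matrix proteases and inhibitors, 11 were higher and 4 lower, the median was 0.71 (0.28 under limma on log2 FPKM plus 1), and 9 were higher and 2 lower without H2O2 (12 and 4 without ATG7 KO untreated replicate 1). TIMP3, a matrix-bound inhibitor of metalloproteinases, read 1.82, 2.07 and 2.03 FPKM in WT and 8.58, 8.53 and 8.79 FPKM in ATG7 KO cells (2.12 ± 0.09, adjusted p = 8.37e-20). MMP9 (1.83), MMP14 (1.35), the gelatinase MMP2 (1.11) and the urokinase PLAU (1.11) were higher, and ADAMTS1 was lower (-0.95). Integrins and adhesion genes gave 15 higher and 2 lower of 21 (median 0.44), with the collagen receptor subunits ITGA11 (2.09), ITGA1 (1.44) and ITGA2 (1.16) and the cell adhesion molecule NRCAM (3.26) on the higher side and ITGB4 (-1.72), the hemidesmosome integrin, on the lower. Of the laminin chains of epithelial anchoring sites, LAMB3 stood at 76.8 ± 0.901 against 29.8 ± 1.19 FPKM, while LAMA3 (0.22, adjusted p = 0.0117) did not pass. Collagens and basement membrane genes as a whole were 14 higher and 10 lower of 31 (median 0.18, and -0.01 after length correction), beside 27.7% and 27.9% over all genes. The capsule collagen chains COL4A5 (1.64) and COL4A6 (1.26) were higher and SPARC, a matrix glycoprotein, was lower (143 ± 1.41 against 264 ± 1.89 FPKM).

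Markers of epithelial-mesenchymal transition and TGF-β targets were evenly split, 13 higher and 13 lower of 29, with a median of 0.06 that became -0.02 after length correction. The actin-binding protein TAGLN read 34.2, 35.8 and 33.1 FPKM in WT and 10.1, 11.8 and 11.7 FPKM in ATG7 KO cells (-1.62 ± 0.05), and CNN1 (-1.13), CTGF (-0.66) and ACTA2 (-0.53) were lower. THBS1, an activator of latent TGF-β (1.56), INHBA, the activin A chain (1.52), and FN1, fibronectin (0.54), were higher. In the growth factor axis 14 of 26 tested were higher and 7 lower (median 0.26). The EGF receptor ligands parted: AREG read 209, 193 and 191 FPKM in ATG7 KO and 64.6, 76.2 and 71.8 FPKM in WT cells (1.48 ± 0.05, adjusted p = 1.83e-19) and EREG was higher (0.98), while HBEGF was lower at 39.1 ± 0.922 against 85.8 ± 6.40 FPKM (-1.14; untreated 0.25, not passed; interaction -1.38). FGF2, a growth factor of the lens, was higher with (0.95) and without H2O2 (0.83).

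Lipid and sugar metabolism leaned towards lower levels. Of 24 cholesterol and fatty acid synthesis genes, 16 passed as lower and the other 8 did not pass, with a median of -0.35. IDI1, an enzyme of the mevalonate pathway, read 18.3, 15.9 and 16.9 FPKM in WT and 9.38, 10.4 and 9.06 FPKM in ATG7 KO cells (-0.84 ± 0.06, adjusted p = 1.43e-13), without overlap. In untreated cells 4 of the 24 members were higher and the others did not pass (12 higher and 3 lower without ATG7 KO untreated replicate 1, median 0.22 with all libraries), and the interaction passed towards WT for 13 of 24 (15 without that library) and towards ATG7 KO for none. The log2 fold changes with and without H2O2 were -0.84 and 0.73 for IDI1, -0.34 and 0.75 for HMGCS1, of the same pathway, and 0.09 and 1.02 for INSIG1, the sterol sensor that restrains it. Glycolysis and pentose phosphate genes were lower in 14 and higher in 5 of 26 (median -0.28). The lactate dehydrogenases LDHB (-1.30) and LDHA (-0.75) and the regulator PFKFB3 (-0.85) were lower, whereas the glucose carrier SLC2A1 (0.48) and the pentose phosphate enzyme TKT (0.47) were higher.

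Mitochondrial transcripts diverged by kind. Of the 13 protein-coding genes of the mitochondrial genome, 6 passed as higher and the other 7 did not pass (median 0.57; 11 as higher without WT H2O2 replicate 3 and 10 with a replicate block). MT-ND1, a subunit of complex I, read 2012, 1954 and 1995 FPKM in ATG7 KO and 1226, 1200.0 and 1273 FPKM in WT cells (0.68 ± 0.03, adjusted p = 1.87e-18). The 2 ribosomal RNAs of the same genome, named after their values were seen, went the other way. MT-RNR1 stood at 4676 ± 237 FPKM in WT and 1599 ± 109 FPKM in ATG7 KO cells (-1.56 ± 0.05) and MT-RNR2 at 10549 ± 278 and 5449 ± 293 FPKM (-0.96 ± 0.03). Untreated cells held 616 and 633 FPKM of MT-RNR1. How much ribosomal RNA is left depends on the RNA selection in a library, and its part in these values was not tested. The nuclear genes of mitochondrial mass and turnover were 3 higher and 10 lower of 23 (median -0.12), with the mitochondrial DNA-binding factor TFAM at -0.27 and the respiratory gene regulator NRF1 at -0.66.

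Peroxide and thiol defence genes were lower in 12 and higher in 5 of 24 (median -0.14, and 0.01 after length correction). The thioredoxin TXN (-0.57), the peroxiredoxin PRDX2 (-0.84), the lipid peroxidase GPX4 (-0.74) and catalase (CAT; -0.40) were lower. The glutathione synthesis subunits GCLM (0.56) and GCLC (0.52) and the mitochondrial dismutase SOD2 (0.37) were higher. Of 11 tested metallothioneins and metal response genes, 5 were higher and 3 lower (median 0.07), beside 27.7% and 27.9% over all genes. FTH1, the ferritin heavy chain that stores iron, read 184, 190.0 and 197 FPKM in WT and 414, 411 and 425 FPKM in ATG7 KO cells (1.12 ± 0.03, adjusted p = 4.38e-23; untreated 1.41). SLC30A1, a zinc exporter, was lower (-1.13).

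Of 31 core autophagy genes tested, 9 were higher and 9 lower (median 0.02, and -0.01 without WT H2O2 replicate 3), shares close to those over all genes. MAP1LC3B, the LC3 protein that ATG7 activates, read 21.0, 20.5 and 18.3 FPKM in WT and 11.8, 11.5 and 10.9 FPKM in ATG7 KO cells (-0.81 ± 0.05, adjusted p = 1.46e-14). Its relatives GABARAPL2 (-0.58) and GABARAPL1 (-0.50) and the E2-like enzyme ATG3 (-0.23) were lower, as was BECN1 (-0.40), a subunit of the lipid kinase complex. The initiating kinase ULK1 (0.42) and the lipid transfer protein ATG2A (0.77) were higher. ATG5 differed by 0.21, and ATG12 (-0.03) and ATG16L1 (-0.08), its partners, did not pass. Of 16 autophagy receptors, 3 were higher and 8 lower (median -0.09), with the hypoxia-induced mitophagy receptor BNIP3 at -0.75 and the ER receptor RETREG1 at -0.91. SQSTM1 (p62), the receptor that autophagy degrades along with its cargo, stood at 53, 55.6 and 53.9 FPKM in WT and 51.8, 52.1 and 53.2 FPKM in ATG7 KO cells, and its mRNA did not pass (-0.06 ± 0.03, adjusted p = 0.144). Lysosomal genes were higher in 16 and lower in 6 of 33 (median 0.15). CTSS, cathepsin S (chr1:150730196-150765957), was the single differentially expressed one, at 3.62, 2.97 and 3.64 FPKM in ATG7 KO and 0.432, 0.568 and 0.578 FPKM in WT cells (2.69 ± 0.15, adjusted p = 5.66e-16; untreated 2.03). The lysosome regulator TFEB (0.51) and the membrane proteins LAMP1 (0.22) and LAMP2 (0.26) were higher, and the calcium channel MCOLN1 was lower (-0.73).

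Some genes were close to silent in 1 line. By a rule chosen after the values were seen (differentially expressed, a log2 fold change beyond 4 and a mean under 1 FPKM in 1 line), 28 protein-coding genes stood apart, 17 lower and 11 higher in ATG7 KO cells. All 20 of them that could be tested without H2O2 had passed there in the same direction. The others stood below 1 FPKM in both untreated lines with too few reads for a test with all libraries, so the 20 do not speak for them. BAAT could be tested once ATG7 KO untreated replicate 1 was left out. It did not pass there (-0.74, adjusted p = 0.304, edgeR's quasi-likelihood test). Among these other genes the interaction passed for OVGP1, SOWAHD, BAAT and C11orf96, and not for RNF225, IL17F, FNDC7 and SPANXN1. IL17F had 0 reads in both untreated groups, so its interaction could not be estimated. FNDC7 had 0 untreated WT and 2 untreated ATG7 KO reads. Its interaction passed without ATG7 KO untreated replicate 1 (adjusted p = 0.0015, edgeR's quasi-likelihood test). With so few untreated reads, not passing does not show an unchanged difference. BEX1, a small adaptor protein of neural tissue (chrX:103062651-103064240), stood at 101 ± 3.51 FPKM in WT and 0.614 ± 0.0655 FPKM in ATG7 KO cells (-7.35 ± 0.12). DPYSL4 (-4.57), the nuclear pore protein NUP210 (-4.57), the matrix protein FBLN2 (-4.85) and the hypoxia-induced carbonic anhydrase CA9 (-4.53) were lower with it. On the higher side were the aldo-keto reductases AKR1C1 (2.66 ± 0.0928 against 0.0252 ± 0.00698 FPKM) and AKR1C3 (3.91 ± 0.217 against 0.0391 ± 0.0333 FPKM), close copies that may share reads, the matrix proteoglycan LUM (4.91) and CPNE8 (6.43). SPANXA1, a testis gene with near-identical copies, gave no read in the WT libraries and 243 in the ATG7 KO libraries, at least 78.3-fold higher with 3 reads allowed over the WT group.

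Among genes of other kinds, the highest were MTND1P23, AC117402.1, AC245041.1, NECTIN3-AS1 and the mitochondrial transfer RNA gene MT-TH (2.16 to 3.67), and the lowest ARHGAP31-AS1, SNORD3B-1, RPL35P1, AC015813.7 and AC009414.2 (-3.51 to -2.07). The strand setting of the count was not given in the sources used here, so reads of antisense genes cannot be told apart from those of the gene they overlap. ARHGAP31-AS1 read 12.9, 12.5 and 10.4 FPKM in WT and 1.12, 1.07 and 0.924 FPKM in ATG7 KO cells, and was under 1 FPKM in both untreated groups.

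Lens identity genes were few. Of 19 lens transcription factors, 11 were tested, with 4 higher and 2 lower (median 0.00), beside 27.7% and 27.9% over all genes. MEIS1 was higher (1.13) and PAX6 lower (-0.48). Of 23 lens epithelial and fibre proteins, 5 were tested, with GJA1 (0.21) and CDH2 (0.14) higher and CRYAB lower (median -0.27). Markers of other cell types were mostly at or near 0. Of 20, 5 were tested (1 higher, 2 lower, median 0.50, which turned to -0.73 under DESeq2 and -0.71 without a filter on low counts): the macrophage marker CD14 (-1.14; 0.576 ± 0.201 against 1.26 ± 0.205 FPKM), the liver marker ALB (-2.11) and BEST1 (0.93), PMEL and PECAM1, which all stood below 1 FPKM in both lines apart from CD14 in WT cells.

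**Figure D4:**
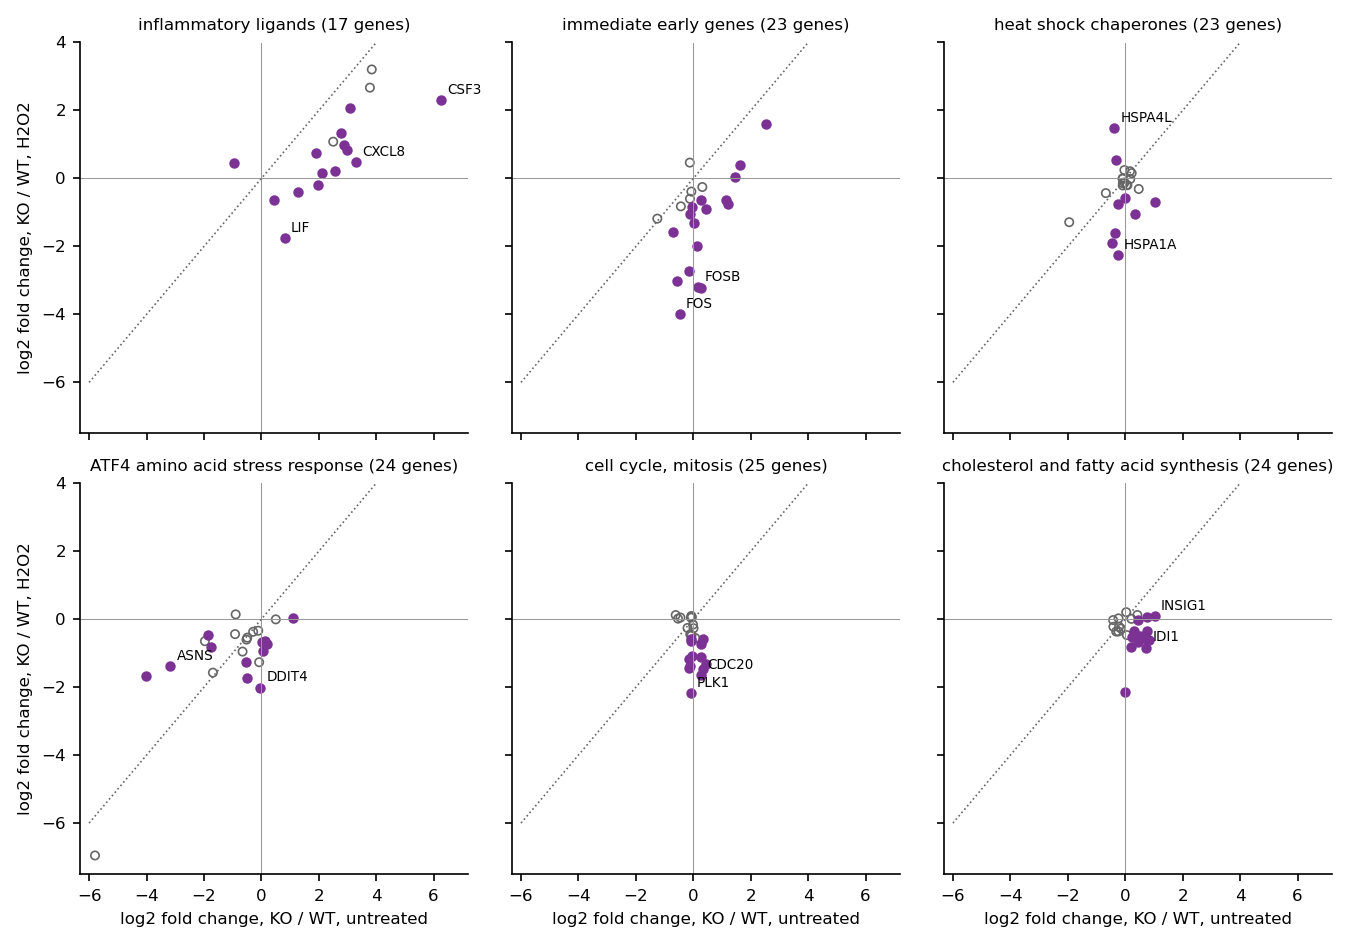
Log2 fold changes, ATG7 KO over WT, without (x axes) and with H2O2 (y axes) for the members of 6 gene lists that were tested in both, with all libraries. Filled points passed the interaction test and open points did not, and the dotted line marks equal effects. Of 17 inflammatory ligands, 16 lie below the dotted line and right of 0, and immediate early and mitotic genes near 0 on the x axis with values down to -3.99 and -2.18 on the y axis.

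The 10 protein-coding genes with the largest interactions were DAPK1, CSF3, EFNA1, GEM, MYCT1, LIF, RGS2, SH2D2A, EGR1 and PIF1. They were chosen among genes with a passing interaction that were differentially expressed under H2O2. Each also had to stand above 1 FPKM in at least 1 group with and at least 1 group without H2O2. EFNA1, an ephrin ligand, read 17.5, 16.2 and 16 FPKM in WT and 4.32, 4.48 and 5.15 FPKM in ATG7 KO cells with H2O2, yet was higher in ATG7 KO cells without it (16 against 7.72 FPKM), so the sign of its difference turned (-1.84 and 1.05; interaction -2.88, adjusted p = 2.98e-06). DAPK1, a kinase linked to cell death, was lower in both settings, at 0.746 ± 0.118 against 2.13 ± 0.262 FPKM with H2O2 (-1.52) and 0.0320 against 1.63 FPKM without (-5.64; interaction 4.12, adjusted p = 3.84e-06). Passing with all libraries was a condition of the choice, and all 10 interactions also passed without ATG7 KO untreated replicate 1.

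Differences also followed gene length and chromosome. With genes sorted into 5 classes of length, the median log2 fold change under H2O2 climbed from -0.18 for the shortest to 0.18 for the longest class, and of the differentially expressed genes 134 higher and 312 lower fell in the shortest class against 118 and 36 in the longest. In untreated cells the medians ran the other way, from 0.20 to -0.15, or from 0.04 to -0.04 without ATG7 KO untreated replicate 1. Whether this trend is biological or technical was not tested. Genes on chromosome 9 had a median of -0.25 under H2O2 and -0.33 without it, and those on chromosome 14 of 0.28 and 0.20, both untreated values without that library. On chromosome 19 the medians were -0.26 and -0.11.

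**Figure D5:**
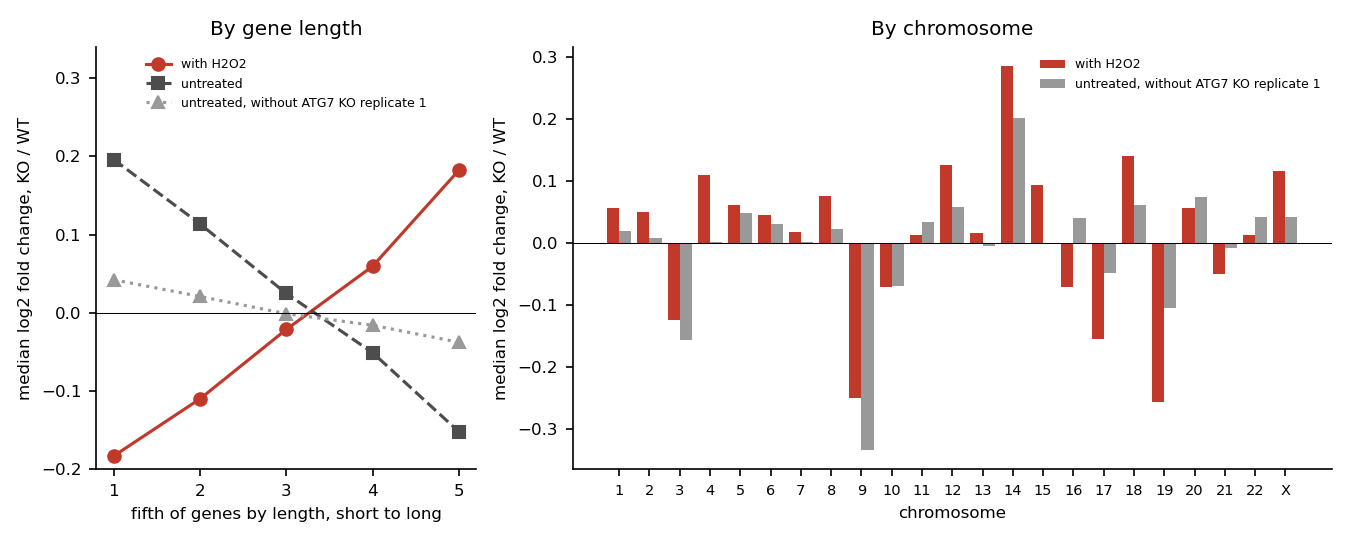
Left, median log2 fold change, ATG7 KO over WT (y axis), of tested genes in 5 length classes from short to long (x axis) with H2O2, untreated, and untreated without ATG7 KO replicate 1. Right, the same median by chromosome with H2O2 (red) and untreated without that library (grey): chromosome 9 lies lowest untreated, and chromosome 14 lies highest of the autosomes in both.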

How the data were processed

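The comparison used RNA-seq of HLE-B3 cells, 4 groups of 3 libraries. Reads were aligned and counted by the authors (the submitters' processing notes name HISAT2 2.0.5, featureCounts 1.5.0-p3 and GRCh38/hg38), and the deposited table holds raw counts per gene. The deposited FPKM values, which the authors derived from those counts, gene length and depth, were used as levels only. Members and gene lists were chosen with earlier results of these data known.

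Counts were tested with edgeR 4.0.16 in R 4.3.3 (TMM scaling, filterByExpr with a minimum count of 10, quasi-likelihood test, Benjamini-Hochberg adjustment over all genes tested), separately for the 6 H2O2 and the 6 untreated libraries, and over all 12 for the genotype by treatment interaction. Genes passed at an adjusted p under 0.01, and were called differentially expressed beyond a log2 fold change of 1 with a mean FPKM above 1 in at least 1 group. Named were ATG7, and the 15 highest and 15 lowest protein-coding genes that were differentially expressed, above 1 FPKM in both groups and without overlap of replicates. Also named were the 10 with the largest passing interactions, among differentially expressed protein-coding genes above 1 FPKM in at least 1 group with and at least 1 group without H2O2. To these were added 5 in each direction of other biotypes, and members of 33 gene lists. On simulated counts with 200 genes changed by 2 on the log2 scale, 100% were recovered in the H2O2 comparison over 15909 genes. The changed genes were drawn from those above the median level, and all others were left unchanged. The simulation therefore does not cover genes of low level, smaller differences or data in which most genes differ. Alternatives were DESeq2 1.42.0, RLE scaling, no filter, a replicate block, leaving out each library, a lowess correction for gene length (span 0.3), all 12 libraries in one fit, a test against a log2 fold change of 1 (glmTreat), and limma 3.58.1 on log2 FPKM plus 1. P-values measure the spread between 3 libraries a group. Totals of 15602183 to 17659496 reads set the depth, and limits from counts of 0 cover counting error only. Some genes are not reported here.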

Additional observations from a re-analysis of the deposited data

Results flagged for a closer look

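For 25 of the genes named by rule, the difference between ATG7 KO and WT cells with H2O2 itself differed from that without H2O2, by the interaction in edgeR's quasi-likelihood test (adjusted p under 0.01). The 10 genes named for their interactions had to pass this test, so their part of the 25 was set by the rule. The highest and lowest genes were named from fold changes with H2O2, which enter the interaction. Estimates are log2 differences of the ATG7 KO effect with H2O2 minus that without. Among the genes lower with H2O2, the estimates were -7.78 for HSPA6, -3.36 for FOSB, -2.45 for EGR1, -2.08 for PLK1, -2.00 for SELPLG, -1.99 for HSPA1A, -1.64 for GADD45B, -1.58 for ZFP36, -1.43 for ACTG2 and -1.29 for HOXB9, and 0.74 for IGFBP3. Among those higher with H2O2 they were -3.93 for CSF3, -2.47 for SH2D2A, 1.66 for LAPTM5 and 0.92 for PTPRU. The genes with the largest interactions among those above 1 FPKM in at least 1 group with and at least 1 group without H2O2 added 4.12 for DAPK1, -2.88 for EFNA1, -2.57 for GEM, 2.57 for MYCT1, -2.57 for LIF, -2.54 for RGS2 and -2.42 for PIF1. Of other biotypes, AC117402.1 stood at 1.09, ARHGAP31-AS1 at -4.17 and RPL35P1 at -3.18.

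Without ATG7 KO untreated replicate 1, 24 of the 25 passed and HSPA6 did not (adjusted p = 0.0122). HSPA6 and ARHGAP31-AS1 had too few reads for a test in untreated cells, so the size of their interaction depends on values near 0. Reads were also few in 1 untreated group for other genes. Over the 3 untreated WT libraries CSF3 had 8, SH2D2A 12 and RPL35P1 35 reads. Over the 3 untreated ATG7 KO libraries DAPK1 had 15 and MYCT1 23. The size of these interactions is limited in the same way.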

How the results depend on the processing

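Fold changes come from 3 libraries a group and KO cells of unstated clonal origin. With H2O2, all 12 libraries in one fit gave 2355 higher and 2521 lower genes that passed, and glmTreat 287 and 553 that passed and 233 and 298 differentially expressed; limma on log2 FPKM plus 1 called 213 and 303. In the 12-library fit, the heat shock chaperones gave 2 higher and 9 lower, p53 targets 8 higher, lysosome 6 higher and 3 lower, and interferon genes 9 higher. Untreated, DESeq2 passed 1240 and 1066, the 12-library fit 1665 and 1489, the length correction 807 lower, and glmTreat 133 and 74, with 105 and 53 differentially expressed. The interaction passed for 1784 higher with DESeq2, and 2000 higher and 2054 lower without a filter. Causes were not tested.

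Same-numbered replicates did not deviate together (r = -0.01, 0.01 and -0.01). With a replicate block 313 and 186 untreated genes passed, and 987 and 1005 interactions.

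When each library was left out in turn, there were 180 to 2891 higher and 107 to 2843 lower untreated genes that passed, 154 to 426 and 88 to 259 differentially expressed, and 622 to 3122 and 710 to 2852 interactions, the highest passed counts all without ATG7 KO untreated replicate 1. With H2O2 the passed counts ran from 3920 to 4424 and 3994 to 4517.

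Signs turned for values near 0. With the length correction the medians were 0.049 for the BCL2 family, 0.0096 for peroxide and thiol defence, -0.016 for epithelial-mesenchymal transition and -0.0065 for collagens, and the fold changes were -0.062 for HYOU1, -0.10 for MKI67 and -0.027 for LAMA3. The median of other-cell markers was -0.73 under DESeq2 and -0.71 without a filter. Over the libraries left out, PCNA ran from -0.0077 to 0.038, ATG16L1 from -0.13 to 0.0063 and the core autophagy median from -0.010 to 0.040.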
